A study of Danio rerio with 26 samples.

Results

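The 5 genes described here, without an assigned role in the exon junction complex, were followed through every RNA-Seq library of zebrafish embryos with a perturbed complex or decay factor. They are rnf169 and 4 genes still known by the name of a genomic clone, si:dkey-90a24.1, si:ch211-92l17.1, si:rp71-77l1.2 and si:dkey-117j14.6. The study lists genes raised in common in magoh mutants at 21 hours post fertilization (hpf), rbm8a mutants at 27 hpf and upf1 morphants at 12 hpf, and these 5 are its clone-named genes together with rnf169. All 5 were found by symbol in each of the 4 tables, which hold 30919 genes (magoh, 21 hpf), 30948 genes (rbm8a, 21 hpf), 30944 genes (rbm8a, 27 hpf) and 28441 genes (upf1, 12 hpf). Between 12.1% and 12.6% of the genes in a table carry a clone name. Because the fold changes of the magoh 21 hpf, rbm8a 27 hpf and upf1 12 hpf comparisons chose the 5 genes, their values there are a description with no test. The rbm8a 21 hpf comparison was not used for the choice and was tested.

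The exon junction complex is set down on RNA upstream of exon junctions during splicing, and its core holds Rbm8a, Magoh and Eif4a3. A complex that stays on an RNA downstream of the stop codon marks that RNA for nonsense-mediated decay (NMD), which needs the helicase Upf1. Loss of complex proteins or of Upf1 also brings cell death in vertebrate embryos.

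Embryos homozygous for the rbm8a allele oz36 were compared with siblings at 21 and 27 hpf, and embryos homozygous for the magoh allele oz37 at 21 hpf. Both alleles were made by CRISPR in the AB strain, and siblings could be wild-type or heterozygous. Each of these groups has 3 libraries of 25 pooled embryos, depleted of ribosomal RNA. The upf1 morphants were injected with 2 ng of a splice-blocking morpholino at the 1-cell stage and compared at 12 hpf with uninjected embryos, in 2 libraries of 30 pooled embryos per group and from polyadenylated RNA. Uninjected embryos do not control for the injection. RNA came from whole embryos, so fewer cells of a type and less RNA per cell cannot be told apart.

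Values are FPKM (fragments per kilobase of transcript, scaled between libraries by the authors), and depth was recovered as 1561184 to 95877745 reads per library. Libraries labelled mutant and sibling alternate in the mutant tables, and as FPKM the targeted gene did not follow these labels. In column order (mutant 1, sibling 1, mutant 2, sibling 2, mutant 3, sibling 3) magoh stood at 17.0, 4.42, 3.67, 13.6, 3.58 and 6.51 FPKM in its table. In the same order rbm8a stood at 7.01, 6.99, 7.28, 13.2, 8.39 and 13.3 FPKM at 21 hpf. Each of the first 3 columns was thus lower than any of the last 3, whatever their label. At 27 hpf rbm8a stood at 3.69, 2.82, 3.65, 12.7, 14.4 and 10.7 FPKM, low in the first 3 columns whatever their label. In the magoh table, magoh was highest in the 2 libraries with the largest FPKM sums (12658731 and 4321182, against 798941 to 917270 in the others). The untargeted rbm8a was highest in the same 2 libraries (42.5 and 15.4 FPKM). Scaled to equal totals of recovered reads (RPM), magoh was lower in every library labelled mutant than in every sibling library. The order of the magoh values thus differed between FPKM and RPM, and the share of all genes with the RPM order was not counted. This holds for the magoh table only. As RPM, rbm8a at 27 hpf stayed lower in each of the first 3 columns than in any of the last 3. At 21 hpf rbm8a as RPM separated neither by the labels nor by place. Groups below are the libraries as labelled, and values by place of the column are given beside them with no genotype assigned. In upf1 morphants the upf1 RNA was lower (30.3 and 31.3 FPKM) than in controls (45.2 and 45.9 FPKM). In the magoh table the libraries labelled mutant replicate 1 and sibling replicate 2 stood apart, with a correlation under 0.8 to most others, and at 21 hpf in the rbm8a table the library labelled mutant replicate 2 did. Of 21 markers of embryonic tissues 19 are in each table, and foxd3, a neural crest gene, stood at 0.223 FPKM or lower throughout.

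In the RefSeq annotation of GRCz12tu, which was used for names and neighbours only, 4 of the 5 genes were matched. The gene rnf169 is protein-coding and lies within the span of brwd1. In human cells RNF169 is a RING-finger protein that binds ubiquitin-marked histones at DNA breaks and limits the binding of 53BP1 there. Both si:dkey-90a24.1 and si:ch211-92l17.1 are annotated as long non-coding RNAs, the former within the span of osbp2b and the latter within that of exoc4. The gene si:rp71-77l1.2 is protein-coding and neighbours gapdhs, and si:dkey-117j14.6 is named only. The strand setting of the counting is not given in the sources used here, so reads of a gene within another gene's span are uncertain in origin.

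At 12 hpf all 5 genes were higher in both upf1 morphant libraries than in either control library, as were 32.4% of all genes tested. This contrast was among those that chose the 5 genes. For rnf169 the morphants had 8.41 and 11.2 FPKM and the controls 2.13 and 2.19 FPKM, a 4.54-fold difference of the means (9.81 ± 1.97 against 2.16 ± 0.0394 FPKM, SD, n = 2 each). These are 4219 and 5654 reads against 839 and 954, the deepest counts of the 5 genes. The spread between the morphants was larger than between the controls, and the groups did not overlap.

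The long non-coding si:dkey-90a24.1 had 2.64 and 3.70 FPKM in the morphants and 0.349 and 0.601 FPKM in the controls. Its means differed 6.67-fold, the widest ratio of the 5, on 22 and 42 reads in the controls. For si:ch211-92l17.1 the values were 1.80 and 2.01 FPKM against 0.320 and 0.406 FPKM, a 5.26-fold difference. Both non-coding genes were thus low in controls and rose above 1 FPKM in each morphant library.

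The protein-coding si:rp71-77l1.2 stood at 6.47 and 6.41 FPKM in the morphants and at 1.54 and 0.984 FPKM in the controls, a 5.10-fold difference. Its morphant libraries were the closest pair among the 5 genes. For si:dkey-117j14.6 the morphants differed from each other, with 1.08 and 2.61 FPKM, while the controls had 0.311 and 0.316 FPKM. Its means differed 5.90-fold, and morphant replicate 2 carries most of that difference.

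**Figure D1:**
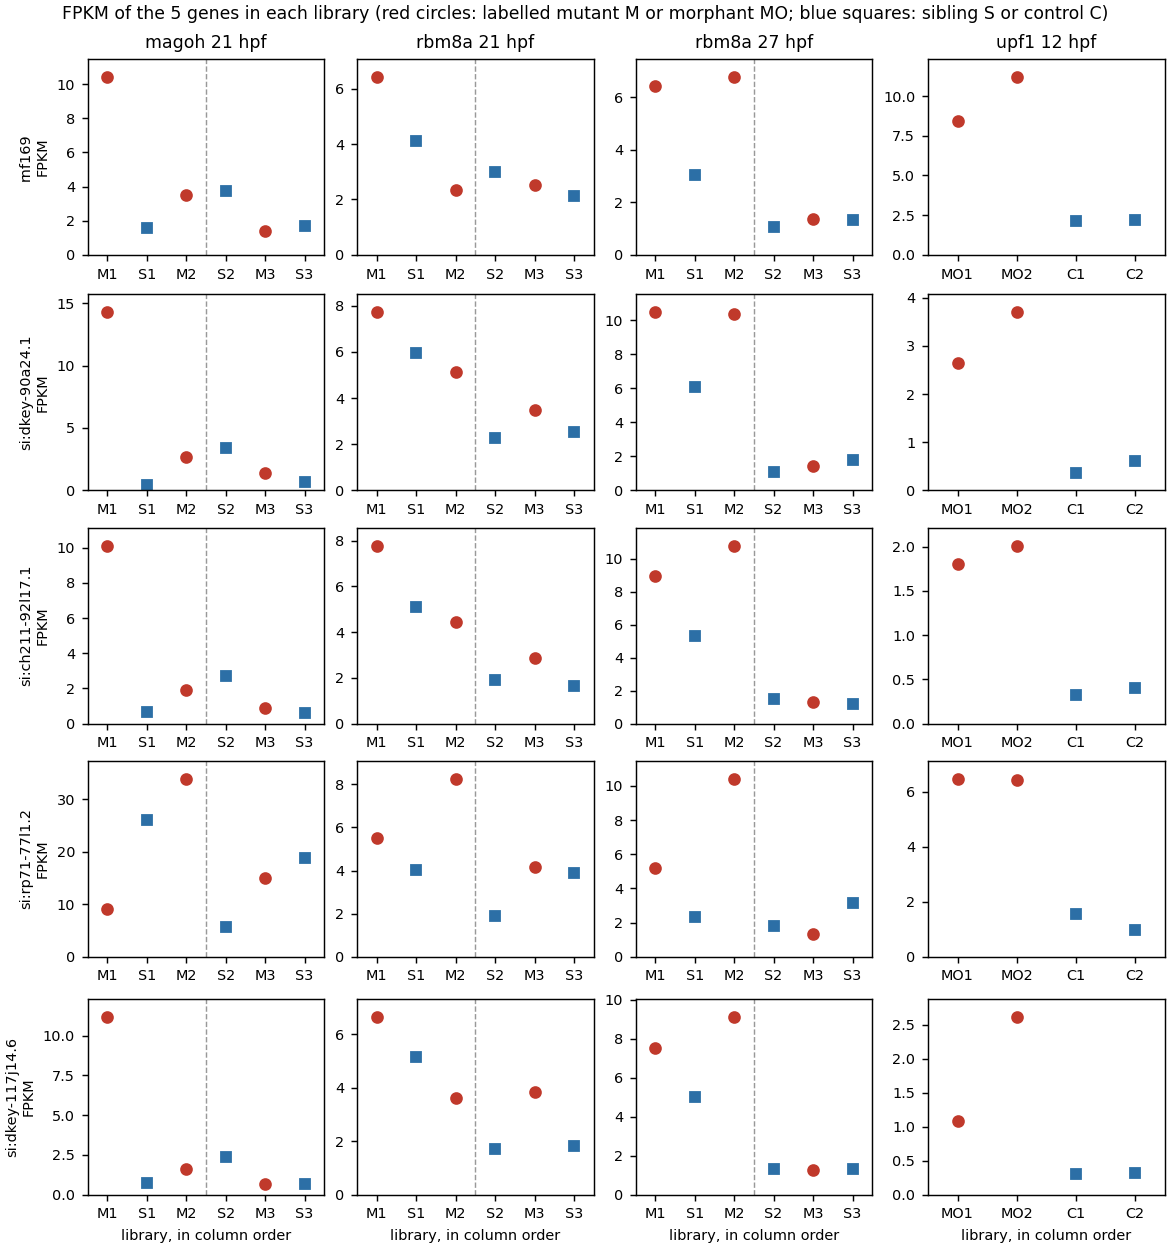
FPKM (vertical axes, from 0) of each gene (rows) in each library (horizontal axes, in column order) of the 4 tables (columns). Red circles are libraries labelled mutant (M) or morphant (MO), blue squares siblings (S) or controls (C), and the dashed line separates the first 3 from the last 3 columns. Morphants lie above controls for all 5 genes, which this contrast helped to choose, and for 32.4% of all genes tested. At 27 hpf the first 3 columns lie above the last 3 for every gene but si:rp71-77l1.2, and for 3.19% of all genes tested.

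On the log2(FPKM + 1) scale, which understates changes of low genes, the differences of morphants from controls were 1.76 ± 0.12 (standard error) for rnf169, 1.73 ± 0.12 for si:rp71-77l1.2 and 1.49 ± 0.14 for si:dkey-90a24.1. They were 1.09 ± 0.08 for si:ch211-92l17.1 and 1.06 ± 0.24 for si:dkey-117j14.6. By limma, at an adjusted p under 0.05 and at least 1.5-fold, 191 of 17057 genes (1.12%) were higher, and all 5 were among them. The rule used this contrast, so the count is a description. Without control replicate 1 or control replicate 2, or with no filter on low FPKM, si:dkey-117j14.6 was not called and the count was 4. Without morphant replicate 2 its change was 0.67, and without morphant replicate 1 it was 1.46. Of all genes tested, 32.4% were higher in both morphant libraries than in both controls.

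At 27 hpf the 5 genes were not separated by the rbm8a labels. In column order rnf169 had 6.42 (mutant 1), 3.03 (sibling 1), 6.78 (mutant 2), 1.07 (sibling 2), 1.35 (mutant 3) and 1.34 FPKM (sibling 3). The high libraries were those in the first 3 columns, one of them labelled sibling. The means were 4.85 ± 3.03 FPKM in libraries labelled mutant and 1.82 ± 1.06 FPKM in those labelled sibling (SD, n = 3 each), and the groups overlapped.

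The non-coding si:dkey-90a24.1 followed the same order with 10.5, 6.05, 10.4, 1.06, 1.41 and 1.76 FPKM, and si:ch211-92l17.1 with 8.97, 5.34, 10.8, 1.47, 1.31 and 1.18 FPKM. The gene si:dkey-117j14.6 had 7.54, 5.01, 9.13, 1.30, 1.29 and 1.31 FPKM. In each of these genes the library labelled mutant replicate 3 sat among the low libraries. As FPKM, the one labelled sibling replicate 1 sat between the high and the low ones. Scaled to equal totals of recovered reads (RPM), sibling replicate 1 was above mutant replicate 1 for si:dkey-90a24.1 (7.19 against 6.07 RPM). The same held for si:ch211-92l17.1 (8.50 against 6.98 RPM) and si:dkey-117j14.6 (9.72 against 7.15 RPM). For rnf169 sibling replicate 1 was slightly below mutant replicate 1 (22.5 against 23.3 RPM). For si:rp71-77l1.2 the values were 5.20, 2.35, 10.4, 1.81, 1.31 and 3.17 FPKM, so that sibling replicate 3 exceeded sibling replicate 1. The low values of the 4 clone-named genes in sibling replicate 2 and mutant replicate 3 rest on 5 to 14 reads each, and those of rnf169 on 44 and 48 reads.

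By place of the column, the mean over the first 3 and the last 3 libraries was 5.41 and 1.25 FPKM for rnf169, 8.96 and 1.41 FPKM for si:dkey-90a24.1, and 8.37 and 1.32 FPKM for si:ch211-92l17.1. For si:dkey-117j14.6 it was 7.23 and 1.30 FPKM, and for si:rp71-77l1.2 it was 5.99 and 2.10 FPKM with overlap. In 4 of the 5 genes every library of the first 3 columns was above every one of the last 3, as in 3.19% of all genes tested. The same 3 libraries were the ones with rbm8a under 4 FPKM. By the labels 0 of the 5 genes separated, against 10.5% of all genes. This comparison helped to choose the 5 genes, so the counts by place and by label are a description.

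The fitted changes by the labels were 0.84 ± 0.42 for rnf169, 0.87 ± 0.60 for si:dkey-90a24.1 and 0.89 ± 0.60 for si:ch211-92l17.1. They were 0.52 ± 0.29 for si:rp71-77l1.2 and 0.78 ± 0.55 for si:dkey-117j14.6. All 5 estimates were above 0, as were 50.7% of all genes tested. No gene of the table was called higher (0% of 28845), while 4283 genes had an unadjusted p under 0.05 by limma. With 1 of the 6 libraries left out, the estimates ran from 0.09 (si:rp71-77l1.2, without mutant replicate 2) to 1.73 (si:ch211-92l17.1, without mutant replicate 3). Without mutant replicate 3 they ran from 1.28 (si:rp71-77l1.2) to 1.73 (si:ch211-92l17.1). Without sibling replicate 3 they ran from 0.11 (si:dkey-117j14.6 and si:ch211-92l17.1) to 0.39 (rnf169).

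**Figure D2:**
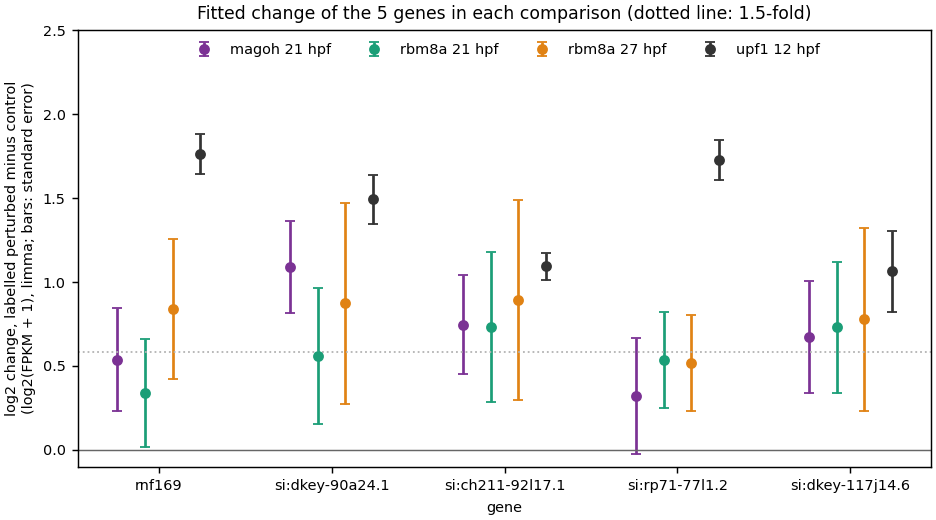
Fitted log2 change (vertical axis, labelled mutant or morphant minus control, log2(FPKM + 1)) of each gene (horizontal axis) in the 4 comparisons (colours), with standard errors as bars. The dotted line is 1.5-fold of FPKM + 1. The upf1 estimates lie between 1.06 and 1.76 with standard errors of 0.08 to 0.24, and the mutant estimates between 0.32 and 1.09 with standard errors of 0.27 to 0.60.

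At 21 hpf in the rbm8a table, the comparison that did not choose the genes, none of the 5 passed the test. In column order rnf169 had 6.42 (mutant 1), 4.11 (sibling 1), 2.34 (mutant 2), 2.99 (sibling 2), 2.52 (mutant 3) and 2.12 FPKM (sibling 3). Its change by the labels was 0.34 ± 0.32 (limma, adjusted p = 0.9999 over all 30411 genes), and the groups overlapped. Without mutant replicate 1 the change of rnf169 was -0.16. Scaled to equal totals of recovered reads (RPM), mutant replicate 2 was the highest library of rnf169 (23.7 RPM, on 37 reads). The labelled groups overlapped on this scale too.

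As FPKM, si:rp71-77l1.2 was the one gene whose labelled groups did not overlap. It had 5.52, 8.26 and 4.18 FPKM in mutants and 4.05, 1.90 and 3.89 FPKM in siblings. As FPKM, every library labelled mutant lay above every sibling library in 2.12% of all genes tested. Scaled to equal totals of recovered reads (RPM), the groups of si:rp71-77l1.2 overlapped. The gene then had 2.02, 8.97 and 2.61 RPM in mutants and 2.11, 0.820 and 2.78 RPM in siblings. Its change was 0.54 ± 0.28 (limma, adjusted p = 0.9999), and the lowest mutant and highest sibling value were close. The library labelled mutant replicate 3 had 8 reads of this gene and mutant replicate 2 had 14, so these values are uncertain from counting alone.

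The non-coding si:dkey-90a24.1 had 7.72, 5.14 and 3.50 FPKM in mutants and 5.96, 2.26 and 2.54 FPKM in siblings, a change of 0.56 ± 0.41. For si:ch211-92l17.1 the values were 7.79, 4.43 and 2.88 against 5.09, 1.90 and 1.64 FPKM, a change of 0.73 ± 0.45. For si:dkey-117j14.6 they were 6.66, 3.63 and 3.86 against 5.17, 1.70 and 1.83 FPKM, a change of 0.73 ± 0.39. The adjusted p by limma was 0.9999 for each of the 3. In all of them sibling replicate 1 was above the middle one of the mutant libraries.

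All 5 estimates at 21 hpf were above 0, with a median of 0.56, and 49.4% of all genes tested were above 0, with a median of -0.0035 on the log2 scale. No gene of the table was called in the whole comparison (0% higher, 0% lower), and 660 genes had an unadjusted p under 0.05 by limma. In the simulation of this comparison 0 of 100 genes changed 4-fold were recovered, so the spread between these libraries limits what can be called. Without the library labelled mutant replicate 2, which stands apart, the changes ran from 0.38 (rnf169) to 0.76 (si:dkey-117j14.6). By place of the column, si:dkey-90a24.1 and si:ch211-92l17.1 did not overlap between the first 3 and the last 3 libraries, as in 2.88% of all genes tested.

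In the magoh table the 4 genes other than si:rp71-77l1.2 were highest in the library labelled mutant replicate 1. In column order rnf169 had 10.4, 1.60, 3.51, 3.74, 1.40 and 1.68 FPKM. The non-coding si:dkey-90a24.1 had 14.3, 0.406, 2.64, 3.37, 1.35 and 0.651 FPKM, and si:ch211-92l17.1 had 10.1, 0.645, 1.89, 2.72, 0.883 and 0.625 FPKM. For si:dkey-117j14.6 the values were 11.2, 0.747, 1.59, 2.39, 0.662 and 0.684 FPKM. In each of the 4 the libraries labelled sibling replicate 2 and mutant replicate 2 took the next places, so labelled groups overlapped. The lowest value of si:dkey-90a24.1, in sibling replicate 1, rests on 8 reads.

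The gene si:rp71-77l1.2 ran the other way, with 9.18, 26.2, 33.9, 5.70, 14.9 and 18.9 FPKM. It was lowest in the 2 libraries that stand apart and highest in mutant replicate 2. Its fitted change by the labels was 0.32 ± 0.34, and it was -0.0045 without sibling replicate 2. The changes of the other 4 were 0.54 ± 0.31 (rnf169), 1.09 ± 0.27 (si:dkey-90a24.1), 0.75 ± 0.29 (si:ch211-92l17.1) and 0.67 ± 0.33 (si:dkey-117j14.6). All 5 were above 0, as were 56.1% of all genes tested.

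No gene of the magoh table was called higher (0% of 30281), and 1332 had an unadjusted p under 0.05 by limma. By the labels 0 of the 5 genes separated (1.93% of all genes did), and by place 0 of 5 (1.87% of all genes). Within the pair of libraries that stand apart, the FPKM of the one labelled mutant was higher for all 5 genes, by 0.60 (si:rp71-77l1.2) to 1.84 (si:dkey-117j14.6) on the log2 scale, as it was for 52.2% of all genes tested. Scaled to equal totals of recovered reads (RPM), si:rp71-77l1.2 was lower in that library (1.74 against 2.55 RPM). Among the other 4 libraries the difference of mutants from siblings was 0.94 for si:dkey-90a24.1, 0.51 for si:ch211-92l17.1, 0.31 for rnf169, 0.28 for si:dkey-117j14.6 and 0.02 for si:rp71-77l1.2. In those 4 libraries both mutants were above both siblings for si:dkey-90a24.1 and si:ch211-92l17.1, as in 16.5% of all genes tested.

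As in the rbm8a tables, the scaling between libraries weighs on the magoh values. The 2 libraries that stand apart have an FPKM sum of 12658731 and 4321182, and the other 4 of 798941 to 917270. As RPM, rnf169 stood at 18.4, 13.2, 26.7, 15.6, 10.7 and 13.6 RPM in column order, so mutant replicate 2 and not mutant replicate 1 was highest. For si:dkey-90a24.1 mutant replicate 1 stayed highest, with 4.04 RPM, mutants 2 and 3 had 3.22 and 1.66 RPM, and siblings had 0.537 to 2.25 RPM, so the groups overlapped on this scale too. On the RPM scaling, the median change of all genes was -0.14, and the changes of the 5 genes ran from 0.13 (si:rp71-77l1.2) to 0.83 (si:dkey-90a24.1).

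**Figure D3:**
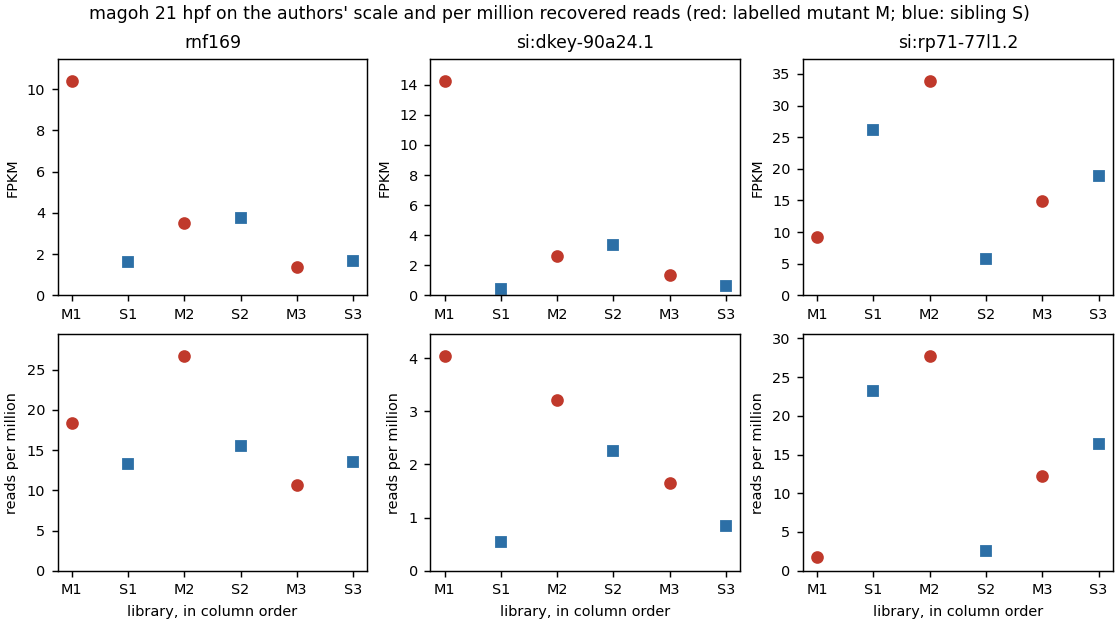
Values of 3 genes in the magoh table in column order (horizontal axes), as FPKM (top, from 0) and as RPM of recovered reads (bottom, from 0). Red circles are libraries labelled mutant (M), blue squares siblings (S). For rnf169 the library M1 is highest as FPKM (10.4) and M2 as RPM (26.7), while si:rp71-77l1.2 is low in M1 and S2 on both scales.

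Over all libraries together, 4 of the 5 genes varied closely together, and si:rp71-77l1.2 followed them less. Over the 22 libraries, with log2(FPKM + 1) centred within each table, Pearson's r was 0.979 between si:dkey-90a24.1 and si:ch211-92l17.1 and 0.979 between si:ch211-92l17.1 and si:dkey-117j14.6. It was 0.924 to 0.940 between rnf169 and each of these 3. For si:rp71-77l1.2 it was 0.276 to 0.379 with the other 4. The tables differed: r of si:rp71-77l1.2 with the other 4 was -0.552 to -0.462 in the magoh table, 0.0627 to 0.670 at 21 hpf and 0.805 to 0.855 at 27 hpf in the rbm8a tables (6 libraries each). In the upf1 table it was 0.872 to 0.977 over 4 libraries. These libraries share their scaling, and in the mutant tables a few libraries set the coefficients. The 5 genes were chosen as raised in 3 of the 4 tables, and values were not centred within groups. Part of each r is therefore fixed by the choice, and r is a description. Whether the 3 clone-named genes that vary most alike share reads was not examined, since no sequence was used.

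Among 16628 genes with a mean of at least 0.5 FPKM in every table, igf2a (r = 0.952), foxo3b (r = 0.950) and pik3r3a (r = 0.928) were the most like rnf169. The gene igf2a encodes an insulin-like growth factor, foxo3b a forkhead transcription factor and pik3r3a a regulatory subunit of phosphoinositide 3-kinase. At 27 hpf foxo3b had 11.4, 4.63 and 12.5 FPKM in the first 3 columns and 1.72 to 2.17 FPKM in the last 3. The clone-named si:rp71-1d10.6 was the most like si:dkey-90a24.1 (r = 0.961), si:ch211-92l17.1 (r = 0.984) and si:dkey-117j14.6 (r = 0.985).

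The genes most like si:rp71-77l1.2 were si:zfos-80g12.1 (r = 0.880), bbc3 (r = 0.867) and zak (r = 0.840). The gene bbc3 encodes Puma, which promotes apoptosis, and zak a stress-activated kinase. Like si:rp71-77l1.2, bbc3 was low in the 2 magoh libraries that stand apart (8.56 and 2.76 FPKM) and had 12.3 to 22.7 FPKM in the other 4. All these genes are described by likeness over the same 22 libraries, and the order has no test.

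Another 8 genes of the common list, foxo3b and bbc3 among them, were chosen with the 5 on the same contrasts. Of the 8, 7 are in the tables, and nupr1a was not found by symbol. In upf1 morphants all 7 were called higher, as were 1.12% of all genes tested. On log2(FPKM + 1), which understates changes of low genes, their median change was 2.44 and that of the 5 genes was 1.49. The largest was phlda3 (3.40 ± 0.08), an inhibitor of Akt signalling, followed by foxo3b (2.79 ± 0.14). In rbm8a mutants at 21 hpf the changes of 6 of the 7 were above 0 (49.4% of all genes were), and none was called.

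Genes that act with RNF169 at DNA breaks in human cells were compared in upf1 morphants. Of 25 genes on that list 19 were tested. The 1 called higher was rnf169 itself, whose call in this contrast is fixed by how it was chosen, and 0 were called lower (1.18% of all genes were). The median change of the list was -0.0020, and that of all genes tested was -0.0032. The ligases rnf8 (0.08 ± 0.07) and rnf168 (-0.11 ± 0.04), which place the ubiquitin marks, had changes near 0. Without the fold threshold 5 genes were lower by limma at an adjusted p under 0.05, as were 12.8% of all genes tested. None of the 5 reached 1.5-fold of FPKM + 1. They were the break sensor kinase atm (-0.47 ± 0.07), the ligase herc2 (-0.38 ± 0.06), the scaffold mdc1 (-0.31 ± 0.04), the deubiquitinase otub1a (-0.22 ± 0.04) and tp53bp1 (-0.17 ± 0.04), which encodes 53BP1 (limma, adjusted p = 0.00720 to 0.0327). No gene of the list was called in the mutant tables.

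Of 7 NMD factors tested in upf1 morphants, 0 were called at 1.5-fold. By limma 5 were higher at an adjusted p under 0.05, with changes of 0.19 (smg5) to 0.42 (smg6), as were 11.2% of all genes tested, and upf1 was lower (-0.55 ± 0.04). Of 14 tested markers of embryonic tissues 0 were called higher and 2 lower (1.12% and 1.18% of all genes), the notochord gene col2a1a (-0.85 ± 0.06) and the yolk syncytial gene apoa2 (-0.61 ± 0.04). The other markers of these tissues changed little, shha of notochord by 0.02 ± 0.04 and apoa1b of the yolk syncytial layer by -0.10 ± 0.06. Without the fold threshold 2 markers were higher and 5 lower by limma at an adjusted p under 0.05 (11.2% and 12.8% of all genes). The part of the makeup of the embryos in the 5 genes' values was not tested.

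**Figure D4:**
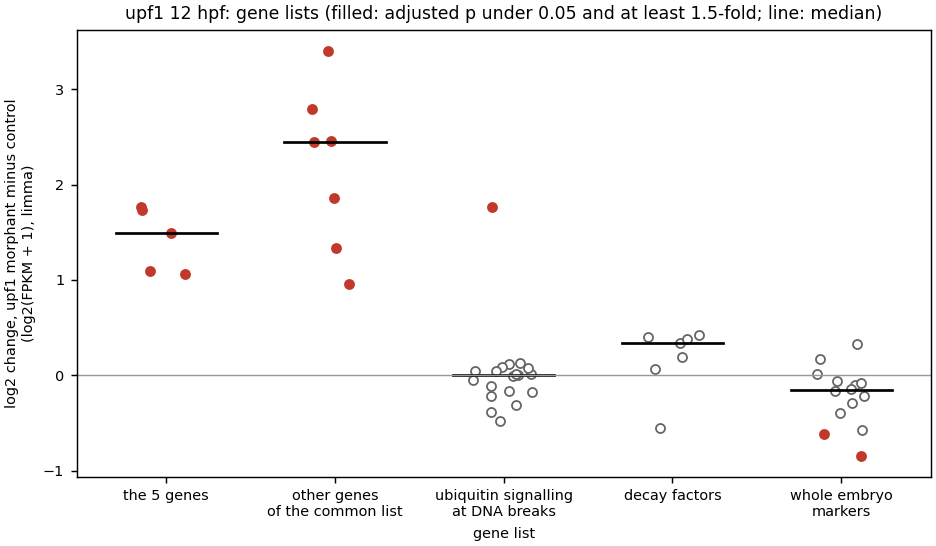
Change in upf1 morphants against controls (vertical axis, log2(FPKM + 1)) for the genes of each list (horizontal axis), each point 1 tested gene, filled where called at an adjusted p under 0.05 and at least 1.5-fold, with the median as a line. The medians are 1.49 for the 5 genes, 2.44 for the other common genes and -0.0020 for genes that act at DNA breaks, where rnf169 is the single filled point.

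Genes beside the 5 were also measured. Of 10 neighbours taken from the annotation or the clone name, the upf1 comparison tested 7 and called 0. Of all genes, 1.12% were called higher and 1.18% lower, so a count of 0 among so few says little. The gene osbp2b, whose span holds si:dkey-90a24.1, was not found by symbol in any table. The gene lipt2, which overlaps rnf169, had a change of 0.21 ± 0.07. The gene brwd1, whose span holds rnf169, had 12.7 and 13.3 FPKM in morphants and 11.2 and 11.6 FPKM in controls, a change of 0.17 ± 0.05 (limma, adjusted p = 0.0472). The gene exoc4, an exocyst subunit whose span holds si:ch211-92l17.1, was lower, with 4.83 and 4.88 against 6.66 and 5.89 FPKM (-0.31 ± 0.07, adjusted p = 0.0242 by limma). The gene gapdhs beside si:rp71-77l1.2 had 2.70 and 2.98 against 2.72 and 2.93 FPKM. Of 9 neighbours tested in each mutant comparison, 0 were called, as were 0% of all genes. In the magoh table exoc4 was highest in the 2 libraries that stand apart (10.3 and 5.31 FPKM), as si:ch211-92l17.1 was. The gene rbm8a, which is no neighbour, was highest there too (42.5 and 15.4 FPKM). Those 2 libraries have the largest FPKM sums of the table, and the share of all genes with this order was not counted.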

How the data were processed

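RNA-Seq was analysed in 22 libraries of 4 deposited tables. Per the study's methods, the authors mapped reads with TopHat2 (version 2.0.14) to GRCz10, counted them per gene, removed genes without a read and fitted DESeq2 with RUVs factors in the mutants. They used a likelihood-ratio test on counts without independent filtering, and fdrtool for the adjusted p-values of both rbm8a experiments. By that method the study reports raised genes in every mutant comparison, so the absence of calls by limma here is not its result. The deposited FPKM were scaled by the authors with size factors, separately for each table, so no level is compared between tables. The tables also hold the authors' mean of normalized counts, a signal over the libraries of a table, and their fold changes, standard errors, test statistics and p-values, which were not used. The values are FPKM, so the count test planned for counts was not the main test.

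Rescaling each gene's FPKM to the authors' mean of its normalized counts, and dividing by the library's smallest nonzero value, gave whole reads in 100% of values under 200 (tolerance 0.05). Their sums are the depth.

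Genes reaching 0.5 FPKM in 3 libraries (2 in the upf1 table) entered limma as log2(FPKM + 1) (version 3.58.1, trended prior, R 4.3.3) within each table, with 1 RUVs factor in the mutants, and p-values were adjusted by Benjamini-Hochberg over all genes tested. All 5 genes passed the filter in every table. Calls needed an adjusted p under 0.05 together with at least a 1.5-fold change, in the main fits of FPKM + 1. For genes of low FPKM this asks for a larger change of FPKM itself. Separate clutches are not stated, so p-values measure the spread between these libraries. Per the study, some or all replicates of a mutant experiment came from separate sequencing runs. It states that this added variability and that RUVs was used to account for it. The sample labels do not give the run of a library. On data simulated with each table's spread, limma recovered 43, 0, 40 and 100 of 100 genes changed 4-fold (magoh, rbm8a 21 hpf, rbm8a 27 hpf, upf1) and called 1, 0, 0 and 4 unchanged genes. The changed genes were drawn from those with a mean above the median, with normal noise on the log2 scale. Recovery of lower genes, and the spread from counting few reads, were not simulated.

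Some genes of the lists are not reported here. Members and lists were chosen with earlier results of these data known. Named genes are the 5, the targeted genes, other genes of the common list, for each of the 5 the 3 genes of highest r, and called members of the lists, at most 4 by smallest p. The lower genes of the break list, rnf8, rnf168, smg5, smg6, shha and apoa1b and the neighbours were named after their values were seen. Of the annotation, 5 of 5 symbols matched gene names and 4 of 5 RefSeq. The RIP-Seq table identifies transcripts without gene names and was not used here. Alternatives were 0 and 2 RUVs factors, a replicate block, a pseudocount of 0.1 FPKM, other filters, quantile normalization, no fold threshold and each library left out. Chosen after seeing the data were the magoh table without the 2 libraries that stand apart, a scaling of libraries to equal totals of recovered reads (RPM) and limma-voom on recovered reads. Python 3.11.15 with numpy 2.4.6, pandas 2.3.3 and matplotlib 3.10.9 was used.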

Additional observations from a re-analysis of the deposited data

How the results depend on the processing

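Of the alternatives for the 5 genes' changes, 79 of 80 in the magoh table, 74 of 75 and 75 of 75 in the rbm8a tables at 21 and 27 hpf, and 55 of 55 in the upf1 table were above 0. The exceptions were si:rp71-77l1.2 in the magoh table without sibling replicate 2 (-0.0045) and rnf169 at 21 hpf without rbm8a mutant replicate 1 (-0.16, and up to 0.67 with another library left out). In the main fits of these tables, in the same order, 56.1%, 49.4%, 50.7% and 49.4% of all genes were above 0. The alternatives reuse the same libraries, and all comparisons but rbm8a at 21 hpf chose the 5 genes. The counts are therefore a description and not separate checks. Adjusted p-values of the 5 genes at 21 hpf were 0.583 or more in every alternative. Calls in the mutant tables were 0 in all but 3 fits: 32 at 27 hpf with 2 RUVs factors, and with 1 library left out 0 to 26 at 21 hpf (26 without mutant replicate 1) and 0 to 612 at 27 hpf (612 without sibling replicate 2). In upf1 morphants 393 genes were called, 901 with a pseudocount of 0.1 FPKM, 4082 with no fold threshold, 1022 by limma-voom on recovered reads and 389 to 506 with 1 library left out. On those log scales the changes of the 5 genes were 2.12 to 2.52 with the pseudocount of 0.1 and 2.17 to 2.73 by limma-voom. Scaling to RPM moved the median of all genes from 0.01 to -0.21 at 27 hpf, where the 5 genes then had changes of 0.80 to 0.98. Replicate numbers were not used as pairs in the main fits. Deviations of same-numbered libraries had correlations from -0.776 to 0.645 in the mutant tables and 0.176 in the upf1 table with 2 pairs. Deviations from the mean of so few libraries are tied to each other, so these correlations cannot settle whether the libraries are paired. With a replicate block 414 genes were called in upf1 morphants and 0 in each mutant table. In the upf1 fit the standard errors of the 5 genes were 0.08 to 0.24 without the block and 0.08 to 0.17 with it. The causes were not tested. Depth is uneven in both rbm8a tables. At 21 hpf the libraries labelled mutant replicates 2 and 3 have 1561184 and 3063244 recovered reads, with 8 to 45 reads of each gene. Mutant replicate 1 there has 16865873 recovered reads and the siblings have 16582013 to 71708321. The shallow libraries of the tested comparison thus all carry the mutant label, and the part of depth in its changes was not tested. At 27 hpf sibling replicate 2 and mutant replicate 3 have 9193992 and 9296710 recovered reads, with 5 to 48 reads of each gene. The other libraries there have 26271231 to 95877745.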
